A study of Mus musculus with 4 samples.

Results

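The genes of the extracellular ATP and adenosine pathway were examined in tumor-infiltrating Tc1 and Tc9 cells. The members were *Adora2a*, *Adora2b*, *P2rx7*, *Entpd1*, *Nt5e*, *Cd38*, *Ada*, *Adk* and *Dpp4*, 9 of the 15981 genes listed in any of the 4 tables. They were found by gene symbol, and the group was chosen by the *Adora2a* counts, which were lower in Tc9 cells, so the level of *Adora2a* is given as a description and was not tested. Both groups were Thy1.1+ Pmel-1 CD8+ T cells on the C57BL/6 background, whose transgenic receptor recognizes a melanoma antigen. Tc1 cells had been polarized in vitro with recombinant IL-2, and Tc9 cells with IL-4, TGF-β and an antibody against IFN-γ. Both were then moved to standard medium with IL-2, for 5 days of culture in all. The cells were given intravenously to Thy1.2+ B6 mice carrying 10-day subcutaneous B16 melanomas, with cyclophosphamide, peptide-pulsed dendritic cells and IL-2 given to both groups, and were sorted from the tumors 14 days after transfer. The methods name 6 mice, without saying whether in all or per group, and RNA pooled into 2 libraries per group, so the libraries are pools and p-values measure only the spread between pools, which may be technical.

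ATP released by stressed or dying cells is a danger signal that opens the P2X7 channel on T cells. At the cell surface, CD39 (*Entpd1*) strips phosphates from ATP to AMP, and CD73 (*Nt5e*) turns AMP into adenosine, while CD38 (*Cd38*) starts a parallel route from NAD. Adenosine acts on the receptors encoded by *Adora2a* and *Adora2b*, which raise cyclic AMP and restrain T cell effector functions, and it is removed by adenosine deaminase (*Ada*) or, inside the cell, by adenosine kinase (*Adk*).

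The tables list genes by numeric identifier, sorted as text rather than by size, and reach different points in that order. All 4 libraries covered *Adora2a*, *Adora2b*, *Entpd1*, *Cd38*, *Ada* and *Adk*. *Dpp4* was covered by 3 libraries (Tc1 replicate 2 and both Tc9 libraries), and *Nt5e* and *P2rx7* by the replicate 2 libraries alone. Library depth was 30822953 to 31927162 expected counts, at which 3 counts equal 0.0952 to 0.0956 CPM (counts scaled to a common library size). All 10 T cell genes looked at were expressed, with *Cd8a* at 21622 and 21532 counts in Tc1 against 21166 and 19330 in Tc9. The labels of 3 libraries could be checked against the signature cytokines, which the table of Tc1 replicate 1 does not reach. *Il9* had 3 counts in Tc1 replicate 2 against 2601 and 2667 in Tc9, and *Ifng* had 15303 against 5097 and 4700.

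The sequences upstream of *Adora2b*, *Nt5e*, *P2rx7* and *Cd38*, which were higher in Tc9, are shown. For *Nt5e* and *P2rx7* this rests on 1 library per group. Each is the 250 bases before a RefSeq start site in build GRCm38.p6, the same assembly as mm10, on the plus strand. Capitals mark GC boxes (the letters GGGCGG on either strand, the site of the Sp1 family), a motif chosen after the sequences were seen.
Adora2b: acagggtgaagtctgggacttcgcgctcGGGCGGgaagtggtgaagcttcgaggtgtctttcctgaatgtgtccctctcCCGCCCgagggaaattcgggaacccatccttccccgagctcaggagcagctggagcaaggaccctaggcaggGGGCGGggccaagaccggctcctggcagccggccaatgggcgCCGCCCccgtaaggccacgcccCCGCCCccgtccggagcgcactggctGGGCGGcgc
Nt5e: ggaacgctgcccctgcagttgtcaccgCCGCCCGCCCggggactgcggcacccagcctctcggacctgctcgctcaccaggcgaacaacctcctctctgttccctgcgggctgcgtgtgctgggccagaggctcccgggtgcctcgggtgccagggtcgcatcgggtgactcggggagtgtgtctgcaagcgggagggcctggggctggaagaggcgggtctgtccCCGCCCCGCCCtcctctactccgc
P2rx7 start site 1: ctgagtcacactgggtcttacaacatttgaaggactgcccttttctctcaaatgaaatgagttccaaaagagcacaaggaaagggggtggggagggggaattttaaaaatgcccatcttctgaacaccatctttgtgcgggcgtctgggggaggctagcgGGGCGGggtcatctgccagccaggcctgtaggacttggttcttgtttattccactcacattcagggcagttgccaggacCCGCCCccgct
P2rx7 start site 2: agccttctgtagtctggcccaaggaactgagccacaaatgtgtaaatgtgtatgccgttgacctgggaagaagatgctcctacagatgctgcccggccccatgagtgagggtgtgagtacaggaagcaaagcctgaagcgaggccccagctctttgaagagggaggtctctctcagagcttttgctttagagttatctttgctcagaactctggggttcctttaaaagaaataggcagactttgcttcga
Cd38: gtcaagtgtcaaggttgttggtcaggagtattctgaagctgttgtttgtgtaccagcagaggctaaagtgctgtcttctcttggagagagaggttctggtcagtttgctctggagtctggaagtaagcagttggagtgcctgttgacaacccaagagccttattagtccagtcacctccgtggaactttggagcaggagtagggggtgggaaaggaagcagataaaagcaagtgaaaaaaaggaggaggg
The windows lie at chr11:62248734-62248983 (*Adora2b*), chr9:88327359-88327608 (*Nt5e*), chr5:122643677-122643926 (*P2rx7*, start site 1), chr5:122650133-122650382 (*P2rx7*, start site 2) and chr5:43868559-43868808 (*Cd38*). The *Adora2b* window held 6 GC boxes and was 69.6% G and C. The *Nt5e* window held 4, in overlapping pairs, and was 72% G and C. The window of the first *P2rx7* start held 2, and those of the second *P2rx7* start and of *Cd38* held none. Of 32851 windows of the same length, 32.7% held a GC box. The letters TTCNNNGAA (the STAT motif), TGACGTCA (the cyclic AMP response element) and ACGTG (the core of the hypoxia response element), searched on both strands, were in none of these 5 windows, and 7.02%, 1.55% and 16.6% of all windows held them. *Adora2a* had no promoter entry, so no window of it is shown. The windows of *Entpd1*, *Ada*, *Adk* and *Dpp4* are not given here, and a link between these letters and the levels was not tested.

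*Adora2a* (gene identifier 11540, chr10:75316877-75334792) encodes the high-affinity adenosine receptor of T cells. Its expected counts were 428 and 387 in the Tc1 libraries (replicates 1 and 2, in this order throughout) against 110 and 145 in the Tc9 libraries. Per transcript length, these were 5.81 and 5.19 FPKM (fragments scaled by transcript length and library size) in Tc1 and 1.49 and 2.03 FPKM in Tc9. Both Tc9 libraries lay below both Tc1 libraries. The level was 12.95 ± 0.886 CPM in Tc1 and 4.06 ± 0.790 CPM in Tc9 (SD, n = 2 in each), a 3.19-fold lower level in Tc9 (log2 fold change -1.67, SE 0.17). In bulk RNA, fewer cells expressing a gene and less RNA per cell cannot be told apart, here and for every gene below.

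*Adora2b* (11541, chr11:62248984-62266452), the low-affinity receptor, ran the opposite way. It had 116 and 120 counts in Tc1 against 361 and 407 in Tc9, or 2.14 and 2.21 FPKM against 6.81 and 7.75 FPKM. The groups were far apart and the libraries within each close together. The level was 3.75 ± 0.10 CPM in Tc1 and 12.2 ± 1.04 CPM in Tc9 (SD, n = 2 in each), 3.26-fold higher in Tc9 (log2 fold change 1.70, SE 0.16, adjusted p = 3.78e-05 by edgeR's quasi-likelihood test, Benjamini-Hochberg over all 1284 genes tested). This call held under every processing alternative tried and without each library in turn.

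The balance of the 2 receptors was thus inverted between the groups. *Adora2a* made up 73.1% and 70.1% of the summed *Adora2a* and *Adora2b* FPKM in Tc1, against 18.0% and 20.8% in Tc9. The sum was 7.95 and 7.40 FPKM in Tc1 and 8.30 and 9.78 FPKM in Tc9. *Adora2a* exceeded *Adora2b* by 2.71 and 2.35 times in Tc1, and *Adora2b* exceeded *Adora2a* by 4.57 and 3.82 times in Tc9. These shares use the value that chose the group and were not tested.

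**Figure D1:**
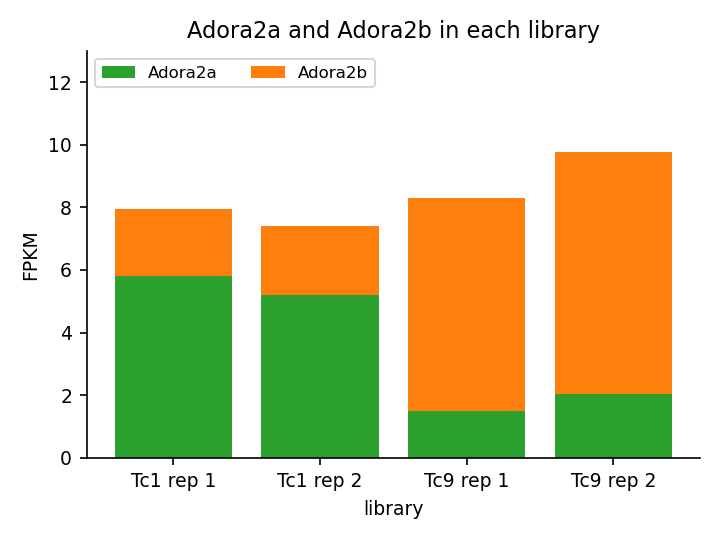
Stacked bars of the FPKM of Adora2a (green) and Adora2b (orange) in each of the 4 libraries, with no error bars because each bar is 1 library. The green part is the larger in both Tc1 bars (5.81 and 5.19 FPKM) and the smaller in both Tc9 bars (1.49 and 2.03 FPKM), and the bars reach 7.40 to 9.78 FPKM in all.

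The genes whose profile over the 4 libraries was nearest to that of *Adora2a*, by the distance between log2 CPM values centred on each gene's mean and out of 1283 genes, were *Prdm1*, *Gldc*, *Runx2*, *Osr2* and *Gramd3*. *Prdm1*, the transcriptional repressor Blimp-1 of terminal effector cells, had 336 and 359 counts in Tc1 against 89 and 108 in Tc9 (distance 0.23). *Gldc*, a glycine-cleaving enzyme of mitochondria, had 83 and 74 against 20 and 22 (distance 0.23). *Runx2*, a transcription factor of the Runt family, had 2773 and 2512 against 882 and 981 (distance 0.24). With 4 libraries, this is a description of likeness only.

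*P2rx7* (18439, chr5:122643927-122692336), the ATP-gated channel, had 66 counts in Tc1 replicate 2 against 526 in Tc9 replicate 2. The count level was 7.77-fold higher in the Tc9 library (log2 ratio 2.96, 95% Wilson interval 2.63 to 3.36). With 1 library in each group there is no replicate check and no test, and the interval covers counting error only. For scale, 95% of 1288 genes differed by less than 0.52 between the Tc1 replicates on the log2 scale. Between the Tc9 replicates, 95% of 2575 genes differed by less than 0.69. *P2rx7* is in neither set, and these genes span all counts past the filter.

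For *P2rx7* the size of the difference depended on the unit. In FPKM it was 0.78 against 3.76, a ratio of 4.82, because the deposited mean transcript length of this gene was 2790.13 bases in the Tc1 library and 4678.64 in the Tc9 library, a ratio of 1.68. Among 5143 genes with 50 or more counts in both replicate 2 libraries, 5 (0.0972%) had mean lengths that differed 1.5-fold or more, namely *Mndal*, *H2-T24*, *Mxd4*, *D130040H23Rik* and *P2rx7*, and for the other members the length moved by far less. The tables assign 7 transcripts to *P2rx7*, of which 5 match the GENCODE M21 annotation. Their lengths are 4936, 2576, 1848, 1605 and 712 bases. The transcript of 1848 bases begins at 122650424, near the second of the start sites printed above, and the others begin at 122643911 to 122644009, near the first. The mean length in Tc9 was close to that of the longest transcript, and the share of each transcript is not given by the tables. The gene also holds the microRNA gene *Mir8115* in its exons.

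**Figure D2:**
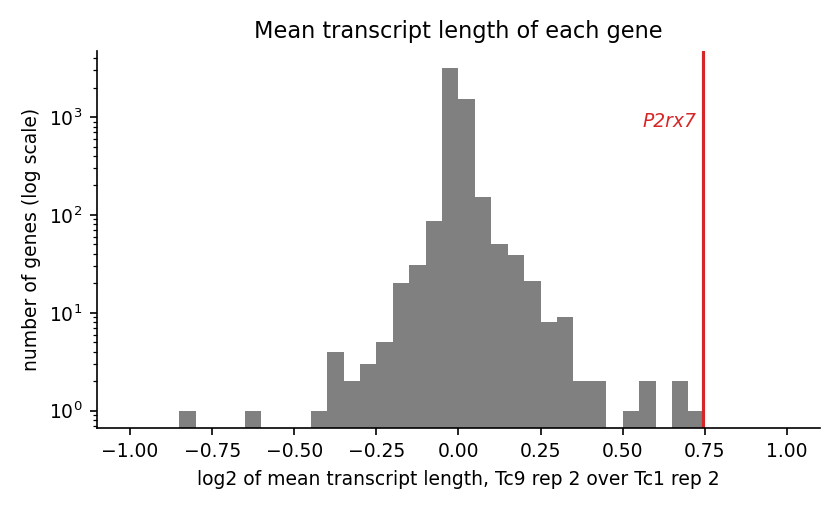
Histogram of the log2 ratio of mean transcript length (Tc9 replicate 2 over Tc1 replicate 2) for 5143 genes, with the number of genes on a log axis and P2rx7 marked by a red line. Nearly all genes sit close to 0, and P2rx7 lies at the right edge with a length ratio of 1.68.

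*Entpd1* (12495, chr19:40612366-40741602), which encodes CD39, had 194 and 179 counts in Tc1 against 248 and 219 in Tc9, or 1.49 and 1.37 FPKM against 1.95 and 1.74 FPKM. The groups did not overlap, but the difference was small. The log2 fold change was 0.33 (SE 0.16). A normal interval from this SE, too narrow for 2 pools per group, ran from 0.020 to 0.63. *Entpd1* did not pass the test (edgeR unadjusted p = 0.0643, edgeR adjusted p = 0.128). Among the alternatives tried, it passed only without Tc9 replicate 2 (log2 fold change 0.41, edgeR adjusted p = 0.0357).

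*Nt5e* (23959, chr9:88327609-88372089), which encodes CD73, had 668 counts in Tc1 replicate 2 against 2200 in Tc9 replicate 2, or 6.07 against 20.75 FPKM. The level was 3.29-fold higher in the Tc9 library (log2 ratio 1.72, 95% Wilson interval 1.60 to 1.85, counting error only, no replicate check). Its deposited length was 3580 bases in both libraries.

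*Cd38* (12494, chr5:43868809-43912374), the NAD glycohydrolase, had 142 and 176 counts in Tc1 against 330 and 255 in Tc9, or 1.55 and 1.92 FPKM against 3.69 and 2.88 FPKM. Both Tc9 libraries lay above both Tc1 libraries. The level was 5.06 ± 0.778 CPM in Tc1 and 9.32 ± 1.69 CPM in Tc9 (SD, n = 2 in each), 1.84-fold higher in Tc9 (log2 fold change 0.88, SE 0.19, edgeR adjusted p = 0.00613). The call was lost without Tc1 replicate 1 (log2 fold change 0.73, edgeR adjusted p = 0.141) and when genes of low count were kept in the test (edgeR adjusted p = 0.0562).

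CD39, CD73 and CD38 are also carried by regulatory T cells, B cells, myeloid cells and endothelium. Of 10 covered myeloid markers, 8 had 3 counts or fewer in both replicate 2 libraries, with *Lyz2* at 0 in both, and the summed myeloid FPKM of 6.35 in Tc1 and 12.82 in Tc9 came almost wholly from *Cd68* (6.19 and 12.68). The 4 B cell markers reported here summed to 4.69 and 14.13 FPKM, mostly *Cd79b* (4.40 and 13.83), while *Ms4a1* had 2 and 2 counts in Tc1 against 4 and 1 in Tc9. The endothelial markers summed to 4.22 and 4.36 FPKM, and 3 of the 4 covered had 3 counts or fewer in both. The dendritic cell, natural killer cell, melanoma and fibroblast markers covered by both replicate 2 libraries summed to at most 1.44 FPKM for each cell type. Of the natural killer list, *Nkg7*, which cytotoxic T cells also express, was covered by Tc9 replicate 2 alone, at 273.53 FPKM. *Cd4* had 50 and 45 counts in Tc1 against 56 and 58 in Tc9. *Foxp3*, the factor of regulatory T cells, had 34.61 and 1591.62 counts in the replicate 2 libraries, while *Ikzf2*, another such factor, had 475 and 240. The part of these other cell types in the levels of *Entpd1*, *Nt5e* and *Cd38* was not tested.

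The enzymes that remove adenosine did not pass the test. *Ada* (11486, chr2:163726571-163750239) had 214 and 255 counts in Tc1 against 195 and 192 in Tc9, or 4.30 and 5.13 FPKM against 4.02 and 3.99 FPKM. Its log2 fold change was -0.27 (SE 0.16, normal interval -0.59 to 0.040, edgeR adjusted p = 0.209), and -0.40 without Tc1 replicate 1 or -0.14 without Tc1 replicate 2. *Adk* (11534, chr14:21052574-21448569) had 957 and 1151 counts in Tc1 against 1253 and 1116 in Tc9, or 18.11 and 21.75 FPKM against 24.09 and 21.64 FPKM, and its groups overlapped. Its log2 fold change was 0.17 (SE 0.13, normal interval -0.087 to 0.43, edgeR adjusted p = 0.339), and 0.042 without Tc1 replicate 1 or 0.31 without Tc1 replicate 2.

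*Dpp4* (13482, chr2:62330073-62412315) encodes CD26, a peptidase of activated T cells that anchors adenosine deaminase on human cells. It had 2318 counts in Tc1 replicate 2 against 2326 and 1805 in Tc9, or 14.35 FPKM against 14.72 and 11.57 FPKM. The Tc1 value lay between the Tc9 values. The log2 fold change was -0.17 (SE 0.24, normal interval -0.64 to 0.31, with the lone Tc1 library assumed to vary like the Tc9 libraries). Of its 6319 exon bases, 232 overlap the antisense gene *Gm13561*, and whether counting used strand is not stated.

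**Figure D3:**
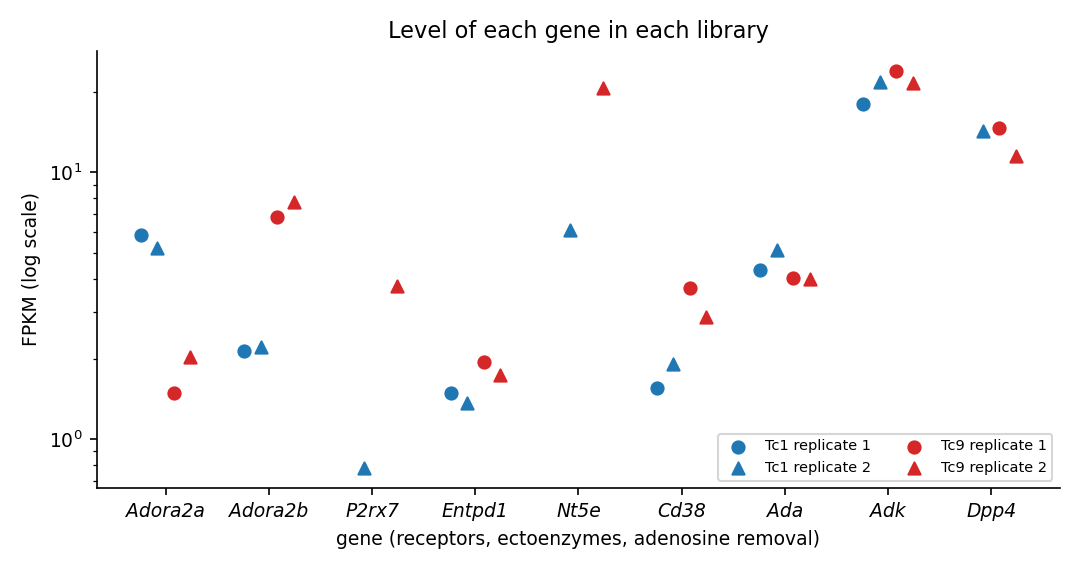
FPKM (log axis) of the 9 genes in each library, with Tc1 in blue, Tc9 in red, circles for replicate 1 and triangles for replicate 2. Adora2a is lower and Adora2b and Cd38 are higher in both Tc9 libraries, Nt5e and P2rx7 have 1 point per group, and the colors mix for Adk and Dpp4.

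Counted over the members, 2 of the 5 tested over 4 libraries besides *Adora2a* (*Adora2b* and *Cd38*) were higher in Tc9 and none was lower. Of all 1284 genes tested there, 17.4% were called higher and 16.7% lower. *Dpp4* was not called over 3 libraries, where 7.51% of 2622 genes were called higher and 3.2% lower. Both members covered by the replicate 2 libraries alone were 2-fold or more higher in Tc9. Of 6161 genes that these libraries cover, including genes covered by more libraries, 10.5% were 2-fold or more higher and 4.72% lower. The members are few, and their choice followed earlier results, so these shares are descriptions.

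The order of the members by FPKM also differed. In Tc1 replicate 2 it ran *Adk*, *Dpp4*, *Nt5e*, *Adora2a*, *Ada*, *Adora2b*, *Cd38*, *Entpd1* and *P2rx7*. In Tc9 replicate 2 it ran *Adk*, *Nt5e*, *Dpp4*, *Adora2b*, *Ada*, *P2rx7*, *Cd38*, *Adora2a* and *Entpd1*. *Adk* led among the members covered in each of the 4 libraries, with *Nt5e* close to it in Tc9 replicate 2 (20.75 against 21.64 FPKM). *Adora2a* stood above *Ada*, *Adora2b*, *Cd38* and *Entpd1* in both Tc1 libraries and below the first 3 of these in both Tc9 libraries. Neighbors such as *Adora2a* and *Ada* in Tc1 replicate 2 (5.19 and 5.13 FPKM) were closer than the spread between replicates.

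**Figure D4:**
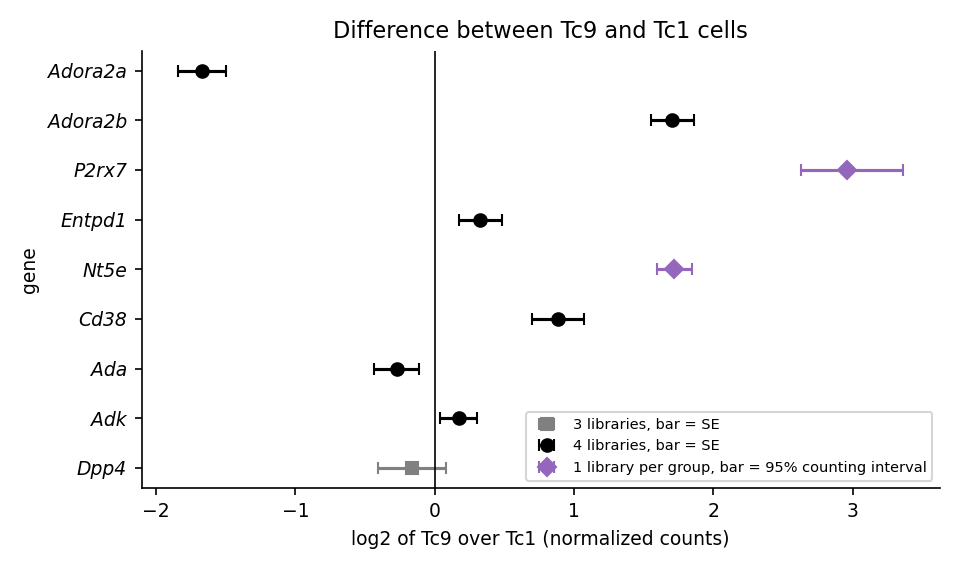
Log2 of Tc9 over Tc1 on normalized counts for the 9 genes, with black circles for 4 libraries and a grey square for 3 libraries (bars are SE), and purple diamonds for 1 library per group (bars are 95% counting intervals). Adora2a lies at -1.67, Adora2b, Nt5e and P2rx7 lie at 1.70, 1.72 and 2.96, and Entpd1, Ada, Adk and Dpp4 lie within 0.33 of 0.

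The wider pathway was described with a list of 87 genes for purine receptors, surface nucleotidases, NAD enzymes, adenosine removal, transport, adenylate kinases and cyclic AMP signaling, of which 81 were listed in a table. Over 4 libraries and without *Adora2a*, 22 were tested, and 7 were higher and 3 lower in Tc9, beside 17.4% higher and 16.7% lower of all genes tested. The median log2 fold change of these 22 was 0.29, beside 0.0014 over all genes tested. Over 3 libraries, 1 of 10 further genes was higher (*Crem*) and none lower, beside 7.51% and 3.2% of all genes tested there, with a median of 0.26 beside 0.11 over 1305 genes. Of 23 genes covered by the replicate 2 libraries alone and passing the filter, 5 were 2-fold or more higher and 1 lower, beside 10.5% and 4.72% of all genes. Their median log2 ratio was 0.16 beside 0.030. Of the 5, *Enpp2* (4 and 24 counts) passed the minimum count of 10 only through the Tc9 library, and *Adcy5* (10 and 31) lay at it in the Tc1 library. The shares over 3 libraries and over the replicate 2 libraries, and the median of 0.030, also take in genes covered by more libraries.

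Among receptors, *Adora3*, the A3 receptor that lowers cyclic AMP, had 38 and 62 counts in Tc1 against 111 and 90 in Tc9 (log2 fold change 1.01, edgeR adjusted p = 0.0177), and shares 779 of its 3729 exon bases with *Tmigd3*. *Adora1*, the remaining adenosine receptor, had 2 counts or fewer in every library. *P2ry1*, a receptor for ADP, had 30 counts in Tc1 replicate 2 against 376 in Tc9 replicate 2 (log2 ratio 3.56, 95% Wilson interval 3.12 to 4.18), with an antisense gene, *Gm37035*, over 992 of its 4291 exon bases. The other P2X channels that passed the filter were *P2rx1* (11 counts in each replicate 2 library), *P2rx3* (24 and 11) and *P2rx4* (235 and 408, log2 ratio 0.79). The log2 ratio of *P2rx7* was the largest of the 4 channels.

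Among surface enzymes that act on nucleotides, *Entpd2*, a relative of CD39, was low, with 10 and 12 counts in Tc1 against 24 and 33 in Tc9 (log2 fold change 1.37, edgeR adjusted p = 0.0171). It shares 612 of its 2128 exon bases with *Npdc1*. *Alpl*, the tissue-nonspecific alkaline phosphatase, which can also make adenosine from AMP, fell, with 77 and 104 counts in Tc1 against 36 and 36 in Tc9 (log2 fold change -1.32, edgeR adjusted p = 0.00371). *Enpp4*, of the nucleotide pyrophosphatase family, had 613 and 289 counts in the replicate 2 libraries (log2 ratio -1.08). *Enpp1*, which cleaves ATP to AMP, had 276 and 291.

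Of the 4 NAD enzymes tested, 3 were higher in Tc9, including *Cd38*, beside 17.4% of all genes tested, and each of these calls was lost without a filter on low counts or without a Tc1 library. *Bst1* (CD157), its neighbor and relative, had 31 and 23 counts in Tc1 against 53 and 64 in Tc9 (log2 fold change 1.12, edgeR adjusted p = 0.0125), with 98 of its 3317 exon bases opposite *Fbxl5*. *Art2b*, the ADP-ribosyltransferase that modifies the P2X7 channel on mouse T cells when NAD is released, had 45 and 24 against 99 and 70 (log2 fold change 1.29, edgeR adjusted p = 0.0123). Its close copy *Art2a* was listed as a pseudogene with 6 and 8 counts in Tc1 against 10 and 8 in Tc9. Whether reads were shared between the copies was not tested. *Art4* had 59 and 54 against 49 and 52 and did not pass the test (edgeR adjusted p = 0.628).

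Inside the cell, *Ampd3*, an AMP deaminase, had 19 and 17 counts in Tc1 against 36 and 65 in Tc9 (log2 fold change 1.49, edgeR adjusted p = 0.0112), with 195 of its 5627 exon bases opposite *Rnf141*, while the far more abundant *Ampd2* did not pass the test (log2 fold change 0.28, edgeR adjusted p = 0.132). *Ak1*, an adenylate kinase, had 33 and 25 against 16 and 12 (log2 fold change -1.04, edgeR adjusted p = 0.0438). *Ak6* had 1251 and 1395 against 850 and 618 (log2 fold change -0.85, edgeR adjusted p = 0.00313), but shares 1564 of its 2769 exon bases with *Taf9*, so its value is uncertain. *Pnp*, which breaks down the inosine made by adenosine deaminase, had 2552.62 and 1738.86 counts in the replicate 2 libraries (log2 ratio -0.55).

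Downstream, *Crem*, a cyclic AMP-responsive transcription factor gene whose short form ICER represses transcription, had 674 counts in Tc1 replicate 2 against 2121 and 1755 in Tc9 (log2 fold change 1.52, SE 0.25, edgeR adjusted p = 0.0156), and 472 of its 5895 exon bases lie opposite *Gm6225*. With 1 Tc1 library in this fit, the spread was taken from the Tc9 libraries. *Creb1*, its relative, had 2266 against 2453 and 2068 (edgeR adjusted p = 0.994). Neither *Gnas*, the stimulatory G protein to which the *Adora2a* and *Adora2b* receptors couple (22270 against 24516 and 26552, edgeR adjusted p = 0.567), nor *Adcy7*, the adenylate cyclase of blood cells (3834 and 3632 against 3744 and 4001, edgeR adjusted p = 0.715), passed the test. *Pde4a*, a phosphodiesterase that degrades cyclic AMP, had 95 and 168 counts in the replicate 2 libraries (log2 ratio 0.81, 95% Wilson interval 0.46 to 1.19), while *Pde8a* had 279 and 278.

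**Figure D5:**
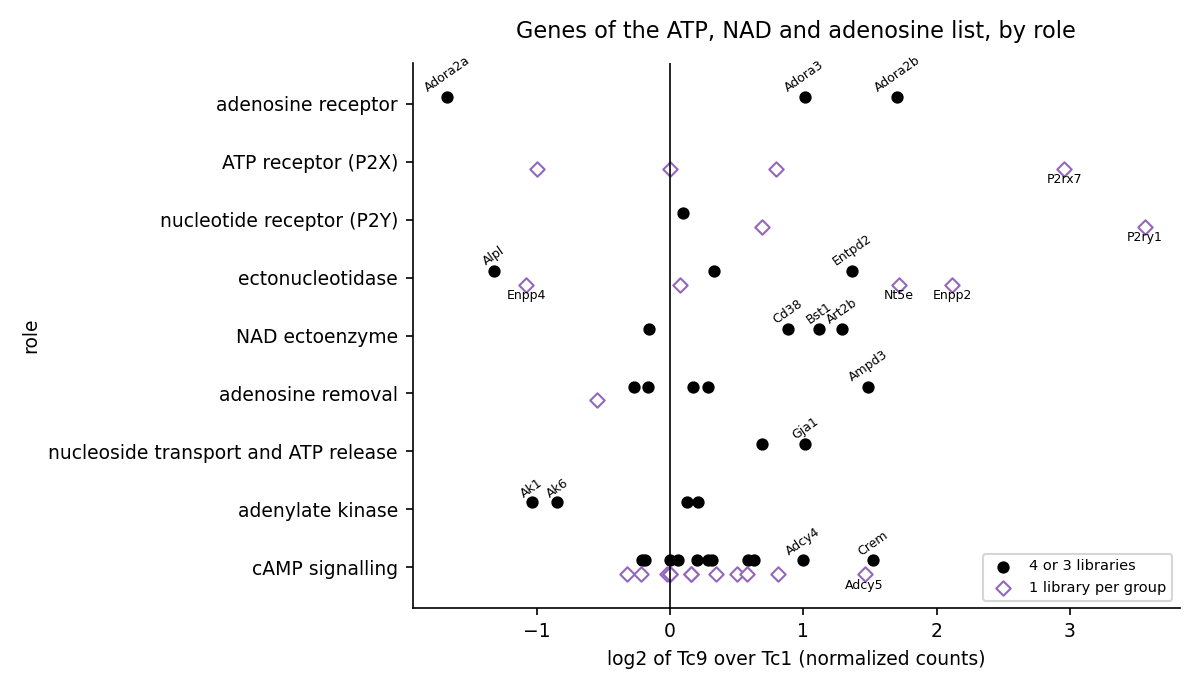
Log2 of Tc9 over Tc1 for the genes of the list, by role, with black points from the fits over 4 or 3 libraries and open purple diamonds from 1 library per group. The outermost points are Adora2a (-1.67), P2rx7 (2.96) and P2ry1 (3.56), and most genes of cyclic AMP signaling lie within 1 of 0.

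Most of these calls depended on the filter, the tool or a library. When genes of low count were kept in the test, *Adora3*, *Entpd2*, *Bst1*, *Art2b*, *Ampd3*, *Ak1*, *Ak6*, *Cd38* and *Crem* were no longer called (edgeR adjusted p = 0.0541 to 0.214), and *Adora2b* and *Alpl* were. Each list gene named as called over 4 libraries besides *Adora2b* also lost its call without Tc1 replicate 1 or without Tc1 replicate 2. Fewer of all genes tested were called in those fits too, and the directions of these list genes did not change. DESeq2 did not call *Entpd2* (adjusted p = 0.121), *Bst1* (adjusted p = 0.0632) or *Ak1* (adjusted p = 0.241), and edgeR with scaling by library size alone did not call *Ak1* (adjusted p = 0.0525).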

How the data were processed

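RNA-Seq was done on total RNA of Tc1 and Tc9 cells sorted from tumors, with 2 libraries for each group, grouped and numbered by the sample labels. The authors deposited for each gene an expected count (an estimated, not always whole, number of reads, without normalization), a mean transcript length in bases and an FPKM value scaled by that length and by library size. The submitters' notes name the mm10 build, and the aligner and counting program are not given in the sources used here. A last row that was cut short was dropped from 1 table. The members and lists were chosen with earlier results of these data known.

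A gene not listed within the range of a table was taken as 0. Depth was derived from the ratio of count to FPKM, relative to Tc9 replicate 2, over genes with at least 500 counts. Counts were rounded and tested with edgeR 4.0.16 in R 4.3.3 (quasi-likelihood, two-sided, TMM factors 0.983 to 1.02 from the 4-library range, filterByExpr at a minimum count of 10), with Benjamini-Hochberg adjustment over all genes tested and a threshold of 0.05. Normal intervals of log2 fold changes took the SE from the test's F value and a normal quantile, so they are too narrow for so few libraries. Log2 ratios between the replicate 2 libraries used a prior count of 2 and have Wilson intervals. The Wilson intervals and the floor of 3 counts reflect counting error alone, since no molecular identifiers tell PCR copies from molecules. The scripts were tested on simulated data. The genes named are the 9 members, list genes past an adjusted p of 0.05, the 5 list genes with the largest absolute log2 ratio among those covered by the replicate 2 libraries alone with 50 counts in either, and the 5 nearest profiles to *Adora2a*; others are named to complete a role and were picked after their values were seen. DESeq2 1.42.0 and limma 3.58.1 on log2(FPKM + 1) or log2(FPKM + 0.1) were alternatives, beside other filters, library size scaling, a replicate block and leaving out each library. Gene positions and promoters are from RefSeq (GRCm38.p6), where 8 of the 9 members had a promoter entry, and exon overlaps and transcripts from GENCODE M21. The result of 1 marker gene is not reported here.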

Additional observations from a re-analysis of the deposited data

How the results depend on the processing

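Over 4 libraries, 224 genes were higher and 214 lower in Tc9. These became 130 and 110 without a filter on low counts, and 72 to 405 and 39 to 405 with each library left out in turn, where the lone library of a group was assumed to vary like the other group. Of the members over 4 libraries besides *Adora2a*, 2 were called, which became 1 without a filter and 1 to 3 with a library left out. The log2 fold change of *Adora2a* was -1.24 on log2(FPKM + 1), a pseudocount that shrinks low levels, and -1.88 to -1.49 with a library left out. With a library left out, that of *Entpd1* ranged from 0.24 to 0.41, passing the threshold without Tc9 replicate 2, and it was 0.23 on log2(FPKM + 1). With a library left out, that of *Cd38* ranged from 0.68 to 1.06, losing its call without Tc1 replicate 1, and it was 0.88 without a filter (edgeR adjusted p = 0.0562) and 0.64 on log2(FPKM + 1). Of the list without *Adora2a*, 10 genes were called over 4 libraries, 2 without a filter and 7 by DESeq2. On log2(FPKM + 1), the changes of list genes of low level were smaller and kept their calls, such as *Ampd3* at 0.30, *Entpd2* at 0.35, *Bst1* at 0.43, *Adora3* at 0.53, *Ak1* at -0.26 and *Alpl* at -0.55.

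Over 3 libraries, 197 genes were higher and 84 lower. These became 371 and 163 when scaled by library size alone, and 282 and 137 with a stricter filter. Without a filter edgeR called 0 and 0, with 370 and 228 genes at an unadjusted p under 0.05, while DESeq2 called 217 and 121. *Dpp4* was called in none of these. The log2 ratio of *P2rx7* was 2.13 on FPKM + 0.1, which takes in its length. Causes other than these constructions were not tested. Averaging in Tc9 replicate 1 gave no value for *Nt5e* and *P2rx7*, which its table does not reach.

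With the replicate number as a replicate block, 231 genes were higher and 213 lower, and no call of a member changed. Deviations of same-numbered libraries correlated at -0.0644 over 1284 genes, and nothing at hand says that the numbers pair the libraries. No result reversed its direction. Depth allows levels of about 0.0956 CPM to be seen, and the number of pools, 2 per group, limits the tests.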

Other observations

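Several genes of the pathway were covered by Tc9 replicate 2 alone, so they give a level and no comparison. *Slc29a1*, the equilibrative transporter that carries adenosine across the cell membrane, had 2561 counts (43.51 FPKM), and *Slc28a2*, a concentrative purine nucleoside transporter, had 865.02 counts (8.51 FPKM). *Panx1*, a channel through which ATP leaves cells, had 2144 counts (35.26 FPKM). *Ahcy*, which releases adenosine from S-adenosylhomocysteine, had 12157.70 counts (162.95 FPKM), above the 21.64 FPKM of *Adk* in the same library. *P2ry10*, a receptor of the P2Y-like family, had 2592 counts (31.52 FPKM), while *P2rx5* and *P2ry12* had 23 and 18 counts. The genes *P2ry4*, *P2ry6*, *P2ry13*, *Entpd8*, *Slc28a1* and *Adcy8* were listed in no table.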
